A study of Mus musculus with 16 samples.

Results

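Transcript levels of 9 genes that belong to red cell precursors and to neutrophils were examined in splenic and peritoneal B cell preparations. The erythroid genes were Hemgn, Car2, Klf1 and Alas2, and the neutrophil genes were S100a8, S100a9, Ngp, Camp and Ltf. They are 9 of 18193 genes named on the array, and each was read from every probe set that the platform annotation gives it, which was 1 per gene. B6.Sle2c1 mice carry the NZM2410-derived lupus susceptibility locus Sle2c1, which the study's title links to Cdkn2c, on the C57BL/6 (B6) background. The groups were splenic B cells (Bs) of Sle2c1 mice (Sle2c1_Bs), splenic B cells of B6 mice (B6_Bs), peritoneal B1a cells of Sle2c1 mice (Sle2c1_B1a) and peritoneal B1a cells of B6 mice (B6_B1a), with 4 arrays each. All mice were 5 months old, and the labels name no treatment, sex or processing day. The Bs fraction was CD43-negative and over 90% B220hi. The B1a fraction was obtained after 2 h of culture in 10% FBS to remove adherent macrophages, followed by depletion of Thy1.2 and CD3ε positive cells and selection with CD5, and was 80% B220int CD5+. The series design calls the arrays biological replicates. The labels do not say whether each came from a separate mouse or a pool, and p-values measure only the spread between these arrays.

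The mouse spleen is a blood-forming organ as well as a lymphoid one, and its red pulp holds erythroblasts, granulocyte precursors and mature neutrophils. Erythroid maturation is driven by transcription factors such as Gata1 and Klf1, which switch on heme synthesis, globins and membrane proteins. Neutrophil granules form in sequence. Primary granule proteins such as myeloperoxidase appear in promyelocytes, and secondary granule proteins such as Ngp, Camp and Ltf in myelocytes and metamyelocytes. S100a8 and S100a9, which pair as calprotectin, are abundant in the cytosol of mature neutrophils and also occur in monocytes. B cell purification removes other cells by surface marker, and transcripts of those cells in a B cell preparation can be read on the same array as those of the B cells.

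The 250 bases upstream of the RefSeq start are shown for 4 members on which the results turn. S100a8 and S100a9 are neighbours on mouse chromosome 3 whose levels followed each other closely, Ngp differed from them in direction between the preparations, and Hemgn had one of the larger spleen differences. Sequences are from RefSeq, build GRCm38.p6, at chr3:90668821-90669070 (plus strand) for S100a8, chr3:90695722-90695971 (minus strand) for S100a9, chr9:110419558-110419807 (plus strand) for Ngp and chr4:46404184-46404433 (minus strand) for Hemgn. Capitals mark matches on either strand to any of 4 motifs, and overlapping matches run together. Gata factors are known to bind the letters AGATAA. Klf factors bind CCNCNCCC, where N is any base, and C/EBP factors of the granulocyte lineage bind TTNNGCAA. The myeloid and B cell factor Spi1 binds GAGGAA. The table held promoters for 8 of the 9 members, all but Car2.
S100a8: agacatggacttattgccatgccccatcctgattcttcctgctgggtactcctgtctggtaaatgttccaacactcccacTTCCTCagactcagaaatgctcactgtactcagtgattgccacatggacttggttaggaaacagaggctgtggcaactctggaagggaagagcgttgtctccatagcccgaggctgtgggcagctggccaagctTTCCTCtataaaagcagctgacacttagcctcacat
S100a9: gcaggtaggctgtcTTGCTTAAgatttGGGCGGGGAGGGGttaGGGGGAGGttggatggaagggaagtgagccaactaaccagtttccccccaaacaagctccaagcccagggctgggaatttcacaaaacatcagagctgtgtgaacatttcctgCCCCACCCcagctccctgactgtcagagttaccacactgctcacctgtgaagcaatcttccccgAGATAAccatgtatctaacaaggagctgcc
Ngp: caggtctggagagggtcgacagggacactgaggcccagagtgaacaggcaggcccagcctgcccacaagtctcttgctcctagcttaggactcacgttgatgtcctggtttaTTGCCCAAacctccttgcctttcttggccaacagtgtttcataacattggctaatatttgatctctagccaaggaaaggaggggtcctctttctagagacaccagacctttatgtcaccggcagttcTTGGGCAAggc
Hemgn: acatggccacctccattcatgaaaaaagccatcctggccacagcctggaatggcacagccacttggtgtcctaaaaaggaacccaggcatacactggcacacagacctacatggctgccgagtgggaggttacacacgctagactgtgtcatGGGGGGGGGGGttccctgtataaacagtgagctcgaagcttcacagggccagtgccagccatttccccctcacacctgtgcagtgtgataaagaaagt

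The S100a8 window held GAGGAA in 2 places and no other motif of the 4. The S100a9 window held AGATAA once, CCNCNCCC in 4 places and TTNNGCAA once, so the neighbouring pair shared none of the searched letters. The Ngp window held TTNNGCAA in 2 places. The 4 matches to CCNCNCCC in Hemgn overlap within 1 run of G. Of 32851 promoters of the same length, 9.99% held AGATAA, 45.9% CCNCNCCC, 9.56% TTNNGCAA and 23.3% GAGGAA. Such matches are letters in a window and not evidence of binding.

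The deposited values are scores without a stated log base, centring or scaling, and are given in score units; levels of different genes are not set against each other, since probe sets differ in their response. Values under 0.495 were raised to it, which is called the floor here. The floor is a chosen cutoff and not a known detection limit, and some raised values lay above the minimum of their array. A group wholly at the floor has no spread left, which lowers the spread that the test uses for that gene. The p-values of such genes are to be read with that limit. Median scores of the 16 arrays lay between 0.68 and 1.12, and the first principal component held 48.8% of the variance. On it B6_Bs 1, at -11.5, lay on the side of the B1a arrays, while B6_Bs 3 lay farthest out at 61.3. Sle2c1_B1a 4 stood apart on the second component, at -55.6. Calls of members and named genes that were lost without these 3 arrays are given with their values. Of the 9 members, 8 exceeded the 40th percentile of their array on at least 4 of 16 arrays and were tested, from 5 arrays for Ltf to 16 for S100a8 and S100a9. Alas2 exceeded it on 3 arrays and was not tested. All 22727 features entered limma's moderated two-sided tests, and p-values were adjusted over the whole table by Benjamini and Hochberg's method, with a threshold of 0.05.

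The spleen preparations held clear transcripts of Hemgn and Car2, and the peritoneal preparations held little of either. Hemgn encodes hemogen, a nuclear protein of blood cell precursors. Its score was 1.79, 1.98, 2.01 and 1.63 on the Sle2c1_Bs arrays and 2.84, 2.77, 2.12 and 2.13 on the B6_Bs arrays. In Sle2c1_B1a it was 1.16 on array 3 and at the floor on the other 3, and in B6_B1a it was at the floor on all 4. Every splenic array thus lay above every peritoneal one. Car2 encodes carbonic anhydrase II, an enzyme that is plentiful in red cells but is also made elsewhere. It was at 2.67, 2.83, 2.88 and 2.38 in Sle2c1_Bs and at 3.42, 3.32, 3.00 and 2.49 in B6_Bs. In B1a cells it reached 0.54 and 1.19 on Sle2c1_B1a arrays 1 and 3, with arrays 2 and 4 at the floor, and 0.67, 1.27, 0.92 and 1.07 in B6_B1a. The splenic and peritoneal ranges of Car2 were likewise apart.

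The other 2 erythroid genes lay near the floor. Klf1, the transcription factor that switches on the adult beta globin gene, was at 0.75, 0.79, 0.99 and 0.67 in Sle2c1_Bs and 0.96, 0.86, 0.94 and 0.66 in B6_Bs. It was at the floor on all 4 Sle2c1_B1a arrays and at the floor, 0.85, 0.53 and 1.08 in B6_B1a, so that it did not overlap between the preparations in Sle2c1 mice and did in B6 mice. Alas2, the erythroid enzyme of the first step of heme synthesis, was at the floor on all 8 Bs arrays. Its only readings above the floor were peritoneal, 0.78 on Sle2c1_B1a 2 and 0.62 and 0.95 on B6_B1a arrays 2 and 4. Hemgn and Car2 thus had higher scores in the spleen preparations, and Alas2 did not. The members were chosen with earlier results of these data known, so this gives no independent support to their description as spleen genes.

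**Figure D1:**
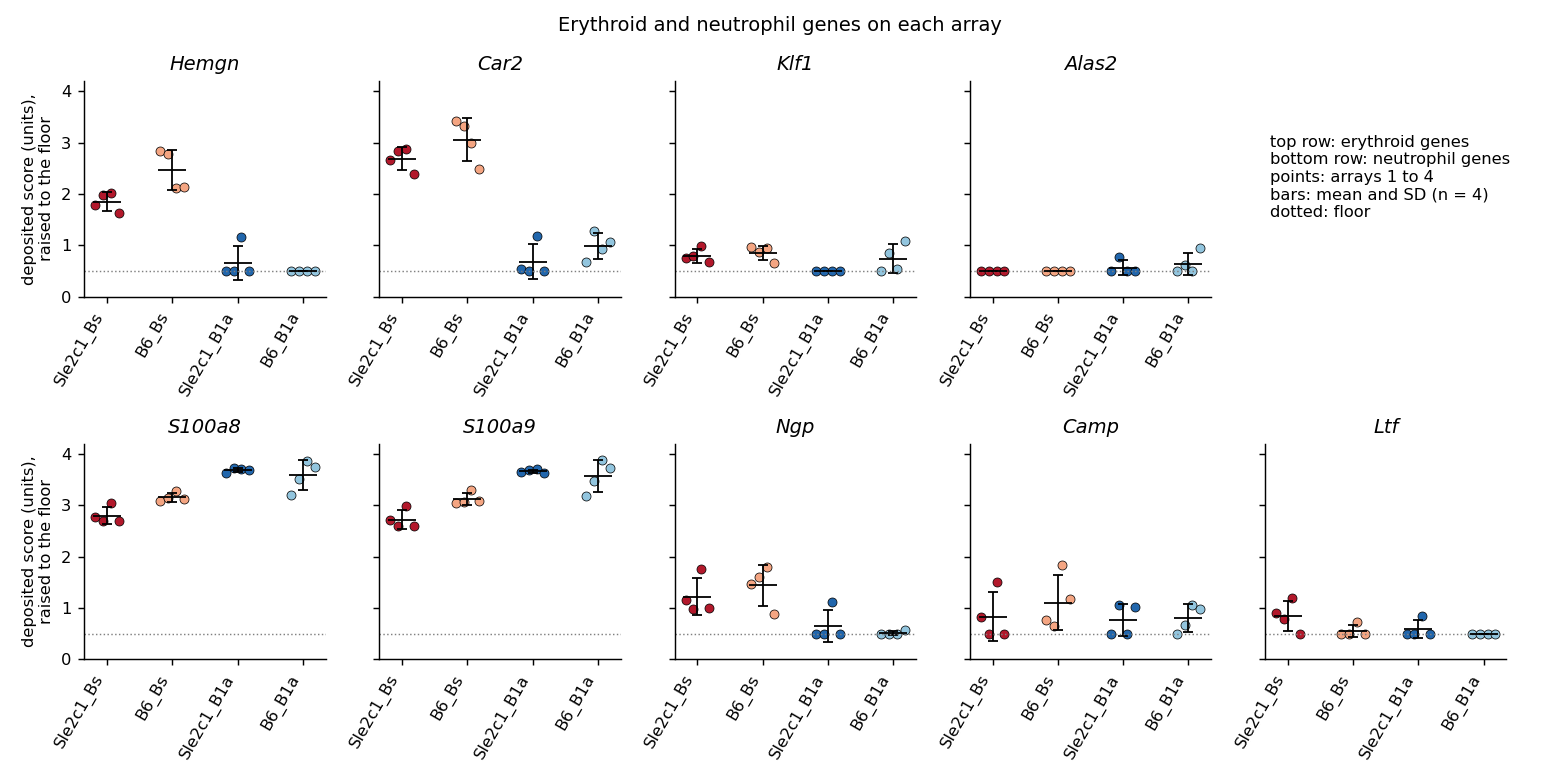
Deposited score of the 9 genes on each array (y axis, score units, values under the floor raised to it), erythroid genes in the top row and neutrophil genes in the bottom row. Points are arrays, bars the mean and SD of 4 arrays, and the dotted line is the floor at 0.495. Hemgn and Car2 are high on all 8 Bs arrays, S100a8 and S100a9 are high on all 16 arrays and higher in most B1a arrays, and Alas2 sits on the floor in spleen.

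Bs minus B1a differences in Sle2c1 mice passed the test for 4 of the 8 tested members, where 25.8% of all features passed. Hemgn averaged 1.85 ± 0.177 in Sle2c1_Bs and 0.661 ± 0.332 in Sle2c1_B1a (SD, n = 4 each), a difference of 1.19 (SE 0.183, limma adjusted p = 0.000252). Car2 averaged 2.69 ± 0.225 in Sle2c1_Bs and 0.68 ± 0.341 in Sle2c1_B1a, a difference of 2.01 (SE 0.212, limma adjusted p = 8.14e-06). Both were higher in spleen. Klf1 differed by 0.30 and did not pass (limma adjusted p = 0.0715), although it did with only the groups compared in the fit (0.0239).

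In B6 mice 5 of the 8 members passed for Bs minus B1a, where 21.3% of all features passed. Hemgn was higher in spleen by at least 1.97, a lower bound because all B6_B1a arrays were at the floor (limma adjusted p = 2.63e-06). Car2 averaged 3.06 ± 0.419 in B6_Bs and 0.982 ± 0.253 in B6_B1a, a difference of 2.08 (limma adjusted p = 7.36e-06), and its p rose to 0.286 when no floor was set. Klf1 differed by 0.12 and did not pass. Groups that did not overlap were 5 of 8 members in Sle2c1 mice (25.5% of all features) and 3 of 8 in B6 mice (22.4%).

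Other erythroid genes were counted from lists of heme synthesis, transcription factors, membrane proteins, and globins and enzymes, leaving out the members. Over all features 14.7% were higher and 11% lower in spleen in Sle2c1 mice, and 12.2% were higher and 9.02% lower in B6 mice. Of the 10 measured heme synthesis genes, 3 were higher in spleen in each strain, and 1 was lower in Sle2c1 mice and none in B6 mice. Slc25a37, the mitochondrial iron importer mitoferrin, was higher by 1.25 in Sle2c1 mice (limma adjusted p = 2e-07) and by 0.92 in B6 mice (limma adjusted p = 6e-06). Abcb10, which stabilises it, was higher by 0.58 and 0.66 in the same order, and the enzyme Urod by 0.29 and 0.34. Alad, the second enzyme of the pathway, fell by 0.71 in Sle2c1 mice (limma adjusted p = 0.0153, or 0.0545 without Sle2c1_Bs 3). The median difference of the list was 0.07 in Sle2c1 mice and 0.17 in B6 mice, against 0.04 and 0.05 over all features. Of 12 globin and red cell enzyme genes, 4 were higher in spleen in each strain and none lower. Car1, the red cell carbonic anhydrase, was at 1.86, 1.98, 2.07 and 0.98 in Sle2c1_Bs and 2.54, 2.46, 2.26 and 1.58 in B6_Bs. It was at the floor on 3 of 4 Sle2c1_B1a arrays and between the floor and 1.03 in B6_B1a. It was higher in spleen by 1.13 in Sle2c1 mice and 1.33 in B6 mice (limma adjusted p = 0.00354 and 0.00143). Blvrb, a biliverdin reductase of red cells, and Bpgm, which makes the bisphosphoglycerate that lowers the oxygen affinity of hemoglobin, were also higher in both. When Bpgm was read from its probe set of largest variance, its difference in B6 mice was below 0.

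Of 11 erythroid transcription factor genes, 4 were higher and 2 lower in Sle2c1 mice, and 6 were higher and 2 lower in B6 mice. Several of those that passed also act in other cells. Lmo2, Bcl11a, Klf3 and Sox6 were higher in spleen in both strains, and Bcl11a and Klf3 are also known as B cell regulators. When Bcl11a was read from its probe set of largest variance, its difference in B6 mice was below 0. The Sox6 call in Sle2c1 mice was lost without any 1 of 5 of the 8 arrays (limma adjusted p up to 0.132). Gata2, a factor of early progenitors and mast cells, was lower by 1.11 in Sle2c1 mice and 1.16 in B6 mice. The other lower gene in both strains was Zfpm1. It was lower by 1.00 in Sle2c1 mice (limma adjusted p up to 0.0128 without 1 array), and averaged 0.835 in B6_Bs and 1.7 in B6_B1a. Gata1, the central erythroid factor, was at 1.42, 1.33, 1.38 and 0.98 in Sle2c1_Bs and 2.25, 2.14, 1.53 and 1.31 in B6_Bs. It was at the floor on every B6_B1a array but reached 1.13, 1.49 and 1.01 on 3 of the Sle2c1_B1a arrays. Gata1 was higher in spleen by at least 1.31 in B6 mice (limma adjusted p = 0.000592), and the difference of 0.25 in Sle2c1 mice did not pass. Of 14 membrane and skeleton genes, 1 was higher and 2 lower in Sle2c1 mice, and 3 were higher and 2 lower in B6 mice. The lower ones were Sptb and Add2 in both strains. Sptb, at the floor on all 8 Bs arrays, was lower by at least 0.36 in Sle2c1 mice and 0.48 in B6 mice. Its call in Sle2c1 mice was lost without any 1 of 6 of the 8 arrays (limma adjusted p up to 0.0694). It was also lost without the 3 arrays that stood apart (0.0836). Add2 was lower by at least 0.65 in Sle2c1 mice and by 0.58 in B6 mice. Ermap, an erythroid membrane protein, was higher in both strains, and the call in Sle2c1 mice was lost without any 1 of 7 of the 8 arrays (limma adjusted p up to 0.117). Without the 3 arrays that stood apart it passed in neither strain (limma adjusted p = 0.058 in Sle2c1 mice and 0.105 in B6 mice). Slc4a1, the band 3 anion exchanger, and Tspan33, a tetraspanin of erythroid and activated B cells, were higher in B6 mice by 1.01 (limma adjusted p = 0.019, or 0.0656 without B6_Bs 2) and at least 1.36, and their differences in Sle2c1 mice (-0.14 and 0.36) did not pass. The count of 3 higher membrane genes in B6 mice was 1 when only the groups compared were fitted. None of 6 receptor and iron genes passed in either strain.

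The neutrophil genes did not run together. S100a8 and S100a9 were well above the floor on all 16 arrays and were lower in the spleen preparations than in the peritoneal ones, whereas the secondary granule gene Ngp was higher in spleen in B6 mice. S100a8 was at 2.78, 2.69, 3.04 and 2.69 in Sle2c1_Bs and 3.09, 3.14, 3.28 and 3.12 in B6_Bs. In the peritoneal groups it was at 3.63, 3.72, 3.71 and 3.69 in Sle2c1_B1a and 3.21, 3.52, 3.87 and 3.74 in B6_B1a. All Sle2c1_B1a arrays lay above all Sle2c1_Bs arrays, and in B6 mice array 1 of B6_B1a lay within the splenic range. S100a9 was at 2.71, 2.60, 2.99 and 2.59 in Sle2c1_Bs, and at 3.05, 3.06, 3.29 and 3.09 in B6_Bs. It was at 3.64, 3.68, 3.70 and 3.63 in Sle2c1_B1a, and at 3.18, 3.47, 3.89 and 3.73 in B6_B1a. The overlap was the same as for S100a8, so both genes stood higher in the peritoneal preparations and their description as spleen genes did not hold.

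In Sle2c1 mice S100a8 averaged 2.80 ± 0.166 in Bs and 3.69 ± 0.0403 in B1a cells, a Bs minus B1a difference of -0.89 (SE 0.12, limma adjusted p = 8.16e-05). S100a9 averaged 2.72 ± 0.186 in Bs and 3.66 ± 0.033 in B1a cells, a difference of -0.94 (SE 0.131, limma adjusted p = 0.000107). In B6 mice S100a8 averaged 3.16 ± 0.0842 in Bs and 3.58 ± 0.289 in B1a cells (difference -0.43, limma adjusted p = 0.0215), and S100a9 averaged 3.12 ± 0.113 in Bs and 3.57 ± 0.311 in B1a cells (difference -0.44, limma adjusted p = 0.0272). The B6 calls were the less stable ones. With only the groups compared in the fit the limma adjusted p was 0.0815 for S100a8 and 0.0924 for S100a9, and without Sle2c1_B1a 4, B6_Bs 1 and B6_Bs 3 together it was 0.0614 and 0.0603. Without B6_Bs 2, B6_Bs 4, B6_B1a 3 or B6_B1a 4 alone it exceeded 0.05 for both, with a maximum of 0.0703 for S100a8 and 0.0854 for S100a9.

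Ngp, a granule protein related to the cathelicidins, was at 1.15, 0.98, 1.76 and 1.00 in Sle2c1_Bs and 1.46, 1.61, 1.80 and 0.89 in B6_Bs. Among the peritoneal arrays it exceeded the floor only on Sle2c1_B1a 3 (1.12) and B6_B1a 4 (0.57). It averaged 1.44 ± 0.392 in B6_Bs and 0.514 ± 0.0375 in B6_B1a, and was higher in spleen by 0.93 (limma adjusted p = 0.00579). In Sle2c1 mice the difference was 0.57 and did not pass (limma adjusted p = 0.0573, or 0.0227 with the replicate number as a block within each cell type). Without Sle2c1_B1a 3, the one array of that group above the floor, it was 0.73 and passed (limma adjusted p = 0.0203). The B6 call was lost without Sle2c1_B1a 4, B6_Bs 1 and B6_Bs 3 (limma adjusted p = 0.0597), with a floor of 1 unit (0.0718) and without a floor (0.278).

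Camp and Ltf were close to the floor and passed in neither strain. Camp, the cathelicidin antimicrobial peptide, was at 0.83 and 1.50 on Sle2c1_Bs arrays 1 and 3, at the floor on arrays 2 and 4, and at 0.76, 0.65, 1.84 and 1.17 in B6_Bs. It reached 1.05 and 1.02 on Sle2c1_B1a arrays 2 and 4, with the other 2 at the floor, and 0.67, 1.06 and 0.99 on B6_B1a arrays 2 to 4, with array 1 at the floor. Its groups overlapped throughout, with Bs minus B1a differences of 0.06 in Sle2c1 mice and 0.30 in B6 mice. Ltf, the iron-binding lactoferrin, was at 0.91, 0.78, 1.20 and the floor in Sle2c1_Bs and above the floor only on array 3 (0.73) in B6_Bs. On the peritoneal arrays it was above the floor only on Sle2c1_B1a 3 (0.85). Its differences were 0.26 in Sle2c1 mice and 0.06 in B6 mice, and without Sle2c1_Bs 4 the first was 0.38 and passed (limma adjusted p = 0.0251).

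**Figure D2:**
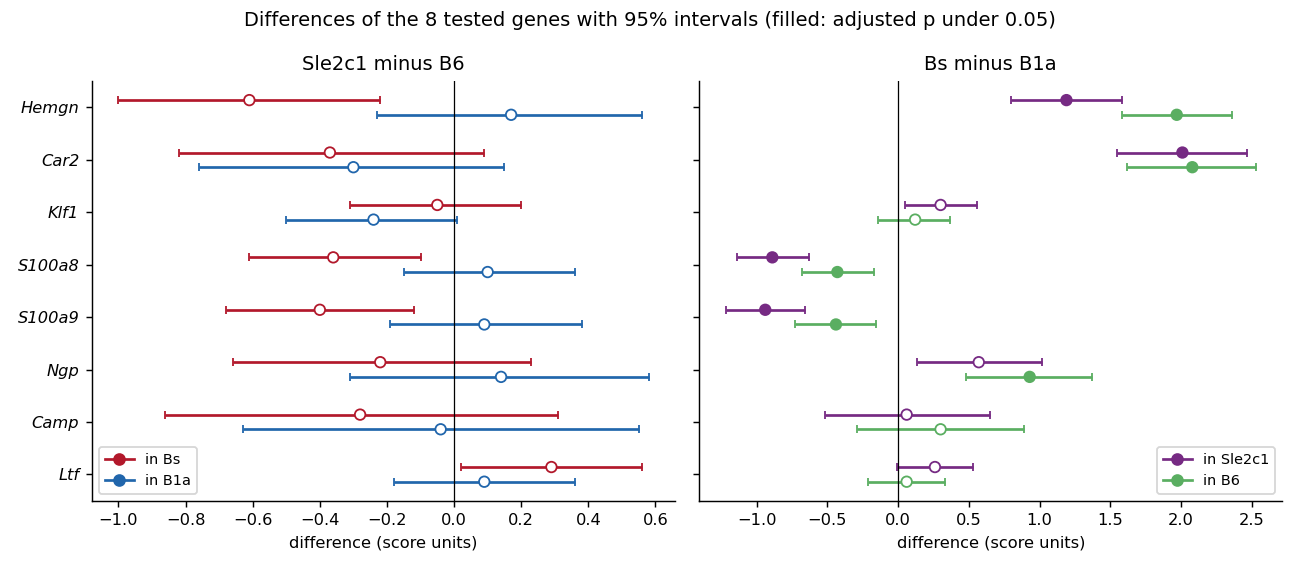
Differences of the 8 tested genes with 95% intervals in score units, Sle2c1 minus B6 on the left and Bs minus B1a on the right, with filled points where the adjusted p is under 0.05. No strain difference is filled. On the right Hemgn and Car2 are filled above 0 in both strains, S100a8 and S100a9 are filled below 0 in both, and Ngp is filled in B6 mice.

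Other neutrophil genes were counted by list. Of 6 genes listed under primary granule, Mpo, Ms4a3 and Serpinb1a were higher in spleen in each strain and none was lower. Elane, Ctsg and Ctsc of that list did not pass in either strain. Elane averaged 0.651 in B6_Bs and 0.642 in B6_B1a, and Ctsg 0.765 and 0.607. In Sle2c1 mice Ctsg was at the floor on all arrays of both preparations. Mpo, myeloperoxidase, was at 0.95, 1.10, 1.09 and 1.01 in Sle2c1_Bs and 1.86, 1.63, 1.13 and 1.07 in B6_Bs, and at the floor on 3 of 4 arrays in each B1a group. It was higher in spleen by 0.46 in Sle2c1 mice and 0.84 in B6 mice (limma adjusted p = 0.0417 and 0.00158). The call in Sle2c1 mice was lost without any 1 of 7 of the 8 arrays (up to 0.0945). Ms4a3, a membrane protein of granulocyte and monocyte progenitors, was higher by 1.05 in Sle2c1 mice and at least 1.06 in B6 mice. Serpinb1a, an inhibitor of neutrophil serine proteases, was higher by 0.30 in both. Of 14 secondary and tertiary granule genes, 2 were higher and 4 lower in Sle2c1 mice, and 1 was higher and 1 lower in B6 mice. Chil3, a chitinase-like protein of myeloid cells, was at 2.38 to 2.58 in Sle2c1_Bs and 2.46 to 2.83 in B6_Bs, against the floor to 1.71 in Sle2c1_B1a and the floor to 0.81 in B6_B1a. It was higher in spleen by 1.48 in Sle2c1 mice and 2.01 in B6 mice (limma adjusted p = 0.000174 and 1.31e-05). Lcn2, a siderophore-binding protein of secondary granules, was lower in both, and the call in B6 mice was lost without any 1 of 5 of the 8 arrays (limma adjusted p up to 0.0681). In Sle2c1 mice the tertiary granule protease Mmp9 was lower by 1.36, Hp by 0.70 and Fcnb by 0.55, whereas Lyz2 was higher by 1.16.

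Most calls of the S100 and surface lists were lower in spleen. Of 4 other S100 and stefin genes, 3 were lower in spleen in each strain, namely S100a6, S100a4 and the stefin Stfa2l1. Of 14 surface and signalling genes, 8 were lower and 1 higher in Sle2c1 mice, and 7 were lower and 1 higher in B6 mice, and the list's median difference was -1.10 in Sle2c1 mice and -0.69 in B6 mice. Il1b, the inflammatory cytokine, was at 0.98, 0.59, 1.34 and 1.14 in Sle2c1_Bs and 1.24, 1.36, 1.91 and 1.69 in B6_Bs. It was at 3.04, 3.10, 3.16 and 3.25 in Sle2c1_B1a and 2.49, 2.90, 3.39 and 3.39 in B6_B1a, with no overlap in either strain. It was lower in spleen by 2.12 in Sle2c1 mice (limma adjusted p = 3.92e-06) and by 1.49 in B6 mice (limma adjusted p = 0.000149). Trem1, an activating receptor of neutrophils and monocytes, was lower by 1.95 and 1.57 in the same order, and Clec4d, a C-type lectin receptor of myeloid cells, by 1.59 and 1.07. The interleukin 1 decoy receptor Il1r2 was at the floor on all 8 Bs arrays and lower by at least 1.79 in Sle2c1 mice and 1.43 in B6 mice. Hdc, histidine decarboxylase, was lower by at least 1.65 in Sle2c1 mice and by 1.53 in B6 mice. The exception, named after its values were seen, was Ifitm6, a myeloid interferon-inducible membrane protein, which was higher in spleen by 0.66 in Sle2c1 mice and 0.63 in B6 mice (limma adjusted p = 0.0249 and 0.0358). The B6 call of Ifitm6 was lost without the 3 arrays that stood apart (0.0897) and with only the groups compared in the fit (0.0775), and without both replicate 3 splenic arrays it passed in neither strain (0.0579 in Sle2c1 mice and 0.12 in B6 mice). Of 7 granulocyte transcription factor genes 1 passed, Cebpd, which was lower by 1.84 in Sle2c1 mice and 1.74 in B6 mice.

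**Figure D3:**
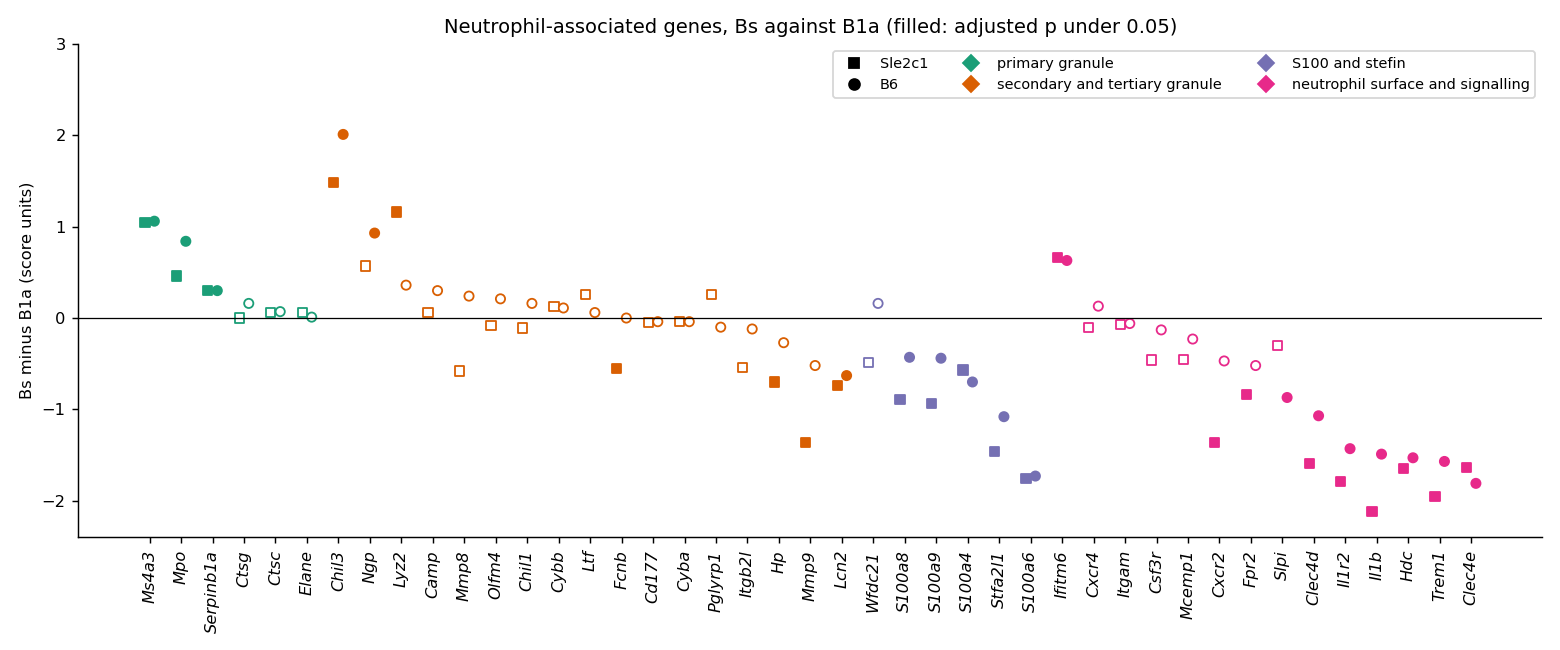
Bs minus B1a difference (y axis, score units) of the neutrophil-associated genes, with squares for Sle2c1 mice, circles for B6 mice, colours for the 4 lists and filled symbols where the adjusted p is under 0.05. Ms4a3, Mpo, Serpinb1a and Chil3 lie above 0, and S100a8, S100a9, Stfa2l1, Il1b, Trem1 and Il1r2 lie below 0 in both strains.

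Markers of other cells moved between the same preparations. Of 6 monocyte and macrophage markers, 2 were higher and 2 lower in spleen in Sle2c1 mice, and 1 was higher and 4 lower in B6 mice (0 and 2 without Sle2c1_B1a 4, B6_Bs 1 and B6_Bs 3). Their mean per array was 1.27 to 1.32 in Sle2c1_Bs and 1.56 to 1.70 in B6_Bs, against 1.45 to 1.58 in Sle2c1_B1a and 1.70 to 2.65 in B6_B1a. Cd14, the lipopolysaccharide coreceptor of monocytes, was at the floor on every Sle2c1_Bs array and on 3 B6_Bs arrays, and between 2.41 and 3.35 on all B1a arrays. C1qb was at the floor on all Sle2c1 arrays of both preparations, and Csf1r was at the floor on all Sle2c1_B1a arrays. Of 21 mitosis genes, 15 were higher and 1 lower in spleen in Sle2c1 mice, and 17 were higher and none lower in B6 mice. Their mean per array was 1.44 to 1.50 in Sle2c1_Bs and 1.70 to 1.83 in B6_Bs, against 0.874 to 1.21 in Sle2c1_B1a and 0.951 to 1.18 in B6_B1a. B cell markers averaged 2.94 to 3.10 on the Bs arrays and 2.80 to 2.91 on the B1a arrays, and of the 7 only Pax5 was at the floor on any array, on 2 arrays in each Bs group and 3 in each B1a group. The 3 follicular markers measured, among them Fcer2a and Cr2, were higher in spleen in both strains. Of 6 B1a markers, 4 were lower in spleen in Sle2c1 mice and 5 in B6 mice. Zbtb32 and Plscr1 were lower in both, as is known of these cell types. Cd5, used to select the B1a cells, was at the floor on 2 Sle2c1_B1a arrays and passed in B6 mice only. Without the 3 arrays that stood apart that call was lost (limma adjusted p = 0.0559). Bhlhe41 passed in neither strain. The part of any of these cells in the member differences was not tested, and in bulk RNA fewer cells of a type and less RNA per cell cannot be told apart.

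Between the strains in spleen, none of the 8 tested members passed, where 0.154% of all features passed. At an unadjusted p under 0.05 there were 4 members, where 3.42% of all features were. The scores of 7 of the 8 were on average lower in Sle2c1_Bs, with a median difference of -0.32 against 0.02 over all features. The strains did not overlap for 3 members, Hemgn, S100a8 and S100a9, each lower in every Sle2c1_Bs array, where 2.34% of all features did not overlap and 1.15% lay lower without overlap. Hemgn averaged 1.85 ± 0.177 in Sle2c1_Bs and 2.46 ± 0.394 in B6_Bs, a difference of -0.61 (SE 0.183, 95% interval -1.0 to -0.22, limma adjusted p = 0.661). The highest Sle2c1_Bs array (2.01) was close to the lowest B6_Bs arrays (2.12 and 2.13). S100a8 differed by -0.36 (limma adjusted p = 0.881) and S100a9 by -0.40 (limma adjusted p = 0.835). Car2 differed by -0.37, Camp by -0.28, Ngp by -0.22 and Klf1 by -0.05, all with overlap. Ltf was the exception, at 0.846 ± 0.293 in Sle2c1_Bs and 0.554 ± 0.118 in B6_Bs, a difference of 0.29 with an unadjusted p of 0.0346 and a limma adjusted p of 1. With array weights Hemgn passed, at -0.82 (limma adjusted p = 0.0034).

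Same-numbered splenic arrays of the strains deviated together in numbers 1, 3 and 4 (r 0.39, 0.62 and 0.43) and hardly in number 2 (r 0.11). The labels do not say what the numbers mean. The strain difference was also taken by number. Hemgn differed by -1.05, -0.79, -0.11 and -0.50 in numbers 1 to 4 and Car2 by -0.75, -0.49, -0.12 and -0.11. S100a8 differed by -0.31, -0.45, -0.24 and -0.43, and S100a9 by -0.34, -0.46, -0.30 and -0.50. All 4 differences were below 0 for each of these genes. For Hemgn, S100a8 and S100a9 the lack of overlap fixes this under any numbering, so it adds nothing to that result. Of the other tested members, Klf1 was below 0 in 2 of 4 numbers, Ngp and Camp in 3 of 4 and Ltf in 0 of 4. The differences of Hemgn and Car2 were larger in numbers 1 and 2, and the S100 differences were of like size in all. With the replicate block the limma adjusted p remained above 0.05, at 0.59 for Hemgn and 0.572 for S100a8.

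Array by array, the B6_Bs group was uneven for erythroid genes, and not in the same way for all. Arrays 1 and 2 had the higher scores for Hemgn, Car2, Gata1, Slc4a1, Hbb-b2 and Tspan33, whereas array 3 had the highest for Ank1, Pklr, Sox6, Nfe2 and the embryonic globin Hbb-bh1; these genes were chosen after their values were seen. The mean of the membrane list was 0.77, 0.84, 0.718 and 0.624 on the Sle2c1_Bs arrays and 1.38, 1.32, 0.951 and 0.76 on the B6_Bs arrays. That of the globin and enzyme list was 1.67, 1.67, 1.72 and 1.45 on the Sle2c1_Bs arrays and 1.81, 1.93, 2.02 and 1.47 on the B6_Bs arrays, so array 3 had the highest mean in both groups. Slc4a1 was at 0.67 on Sle2c1_Bs 2 and at the floor on the other Sle2c1_Bs arrays, against 2.19, 2.09, 0.65 and 1.12 in B6_Bs. Tspan33 was at 1.32, 1.08, 0.74 and 0.92 in Sle2c1_Bs and 2.32, 2.09, 1.45 and 1.57 in B6_Bs, without overlap, a difference of -0.84 (limma adjusted p = 0.155). Hbb-b2, an adult beta globin whose probe set may also read its near-identical neighbour, was at 2.41, 2.28, 2.51 and 2.04 in Sle2c1_Bs and 3.31, 3.32, 2.80 and 2.16 in B6_Bs. Without Sle2c1_B1a 4, B6_Bs 1 and B6_Bs 3 no member passed either. For Ngp, Camp, Ltf, S100a8 and S100a9 array 3 had the highest score in both splenic groups. Over all probe sets array 3 also had the highest median score of its group, 1.06 in Sle2c1_Bs and 1.12 in B6_Bs. It had the smallest share of values at the floor as well (35.5% and 34.1%). The part of this array-wide shift in the scores of these genes and of the globin list was not tested.

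**Figure D4:**
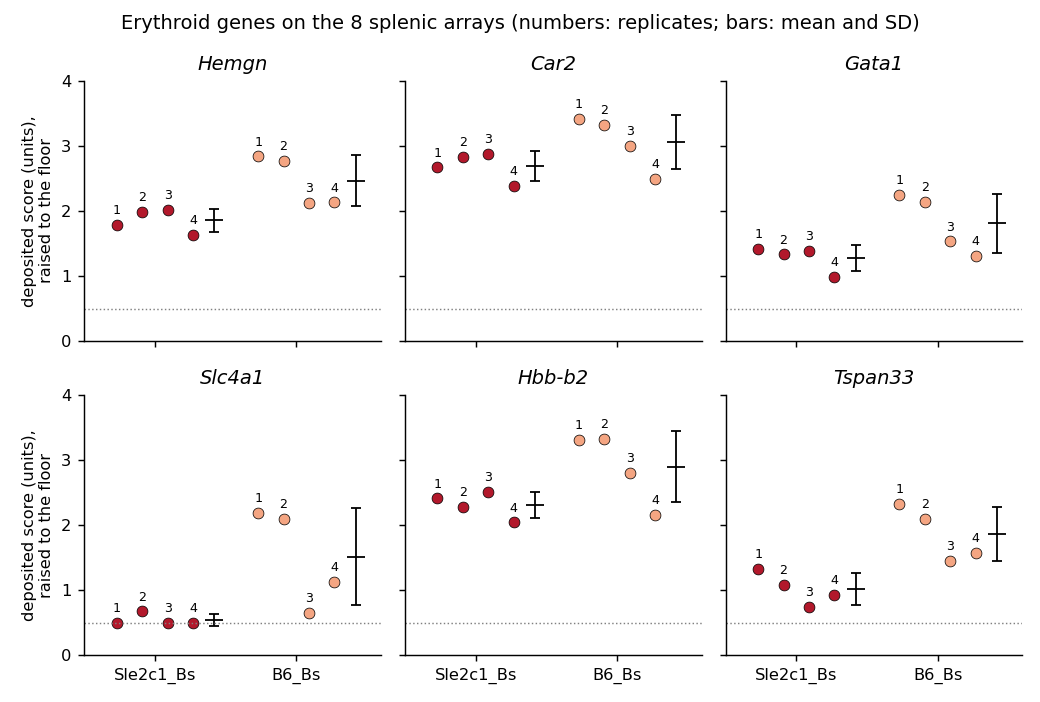
Scores of Hemgn, Car2 and 4 other erythroid genes on the 8 splenic arrays (y axis, score units, floor dotted), Sle2c1_Bs left of B6_Bs, with replicate numbers at the points and the mean and SD of 4 arrays beside them. B6_Bs arrays 1 and 2 are the highest for each of these 6 genes, which were chosen after their values were seen, and Hemgn and Tspan33 do not overlap between the strains.

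No gene of the erythroid and neutrophil lists passed between the strains in spleen. Differences below 0 were seen for 13 of 14 membrane genes (median -0.41), 10 of 12 globin and enzyme genes (median -0.18), 9 of 11 erythroid transcription factor genes (median -0.05) and 8 of 10 heme synthesis genes (median -0.10). On the neutrophil side they were seen for 14 of 14 surface and signalling genes (median -0.23), 6 of 7 granulocyte transcription factor genes (median -0.12), 4 of 6 primary granule genes (median -0.05) and 8 of 14 secondary and tertiary granule genes (median -0.02). Over all features 10091 of 22727 differences were below 0, with a median of 0.02. Slc4a1 differed by -0.97, Gfi1b by -0.65, Gata1 by -0.53, Mmp9 by -0.64, Il1b by -0.54 and Mpo by -0.39. Mitosis genes and monocyte and macrophage markers ran the same way, and not all other lists did. Differences were below 0 for 19 of 21 mitosis genes (median -0.29) and for 6 of 6 monocyte and macrophage markers (median -0.31). Below 0 were also 5 of 6 B1a, 4 of 5 eosinophil and basophil and 3 of 4 platelet markers, with medians from -0.07 to -0.04. By contrast 3 of 7 B cell markers (median 0.01), 3 of 5 T cell markers and none of 3 follicular markers (median 0.11) were below 0. C1qb, the complement component of tissue macrophages, was at the floor in Sle2c1_Bs and at 1.50, 1.67, 1.29 and 0.92 in B6_Bs. The part of these cells in the member differences was not tested.

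In B1a cells no member passed between the strains and none had an unadjusted p under 0.05, where 3.38% of all features passed and 17.2% had such a p. Klf1 was at the floor in Sle2c1_B1a and averaged 0.739 ± 0.278 in B6_B1a (difference -0.24, limma adjusted p = 0.307). Car2 averaged 0.68 ± 0.341 in Sle2c1_B1a and 0.982 ± 0.253 in B6_B1a (difference -0.30, limma adjusted p = 0.504). S100a8 differed by 0.10 (95% interval -0.15 to 0.36) and S100a9 by 0.09, and with median centring both lay slightly below 0. Hemgn differed by 0.17, Ngp by 0.14, Ltf by 0.09 and Camp by -0.04. Among the listed neutrophil genes Fcnb, ficolin B of granulocyte and macrophage precursors, was higher in Sle2c1_B1a, at 1.11, 1.04, 1.18 and 1.16 against the floor on all B6_B1a arrays. The difference was at least 0.63 (limma adjusted p = 0.0001), with no spread left in B6_B1a because its values were raised to the floor. Lyz2, lysozyme of myeloid cells, was lower by 0.86 (limma adjusted p = 0.0246) and Slpi, a secreted protease inhibitor, by 1.15 (limma adjusted p = 0.0284). The macrophage genes Csf1r and C1qb were lower as well, and their part in these values was not tested. Of the erythroid lists Klf3 and Bpgm were lower, by 0.28 and 0.32. Without 1 array the calls were lost for Lyz2 in 3 of 8 cases (limma adjusted p up to 0.0721), Slpi in 5 (up to 0.0906) and Bpgm in 5 (up to 0.1). Without the 3 arrays that stood apart these calls were lost too (limma adjusted p = 0.0664 for Lyz2, 0.0907 for Slpi and 0.0854 for Bpgm). With only the groups compared in the fit, all 6 of these lower calls were lost, at a limma adjusted p of 0.207 for Lyz2, 0.174 for Slpi, 0.155 for Bpgm, 0.0571 for Klf3, 0.0556 for Csf1r and 0.0511 for C1qb.

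The strain effect in spleen minus that in B1a cells passed for no member, where 0.431% of all features passed, and 3 members had an unadjusted p under 0.05, where 7.42% had. Hemgn was at -0.78 (limma adjusted p = 0.397), S100a8 at -0.46 (limma adjusted p = 0.518) and S100a9 at -0.50 (limma adjusted p = 0.533). With array weights Hemgn passed, at -1.0 (limma adjusted p = 0.0323).

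Scores of some members moved together from array to array. Relations were computed for 7 pairs, with exact two-sided permutation tests over the pairings of 8 arrays and Benjamini-Hochberg adjustment over the 7. S100a8 and S100a9 had Pearson r 1.00 and Spearman rho 0.97 over the Bs arrays (exact permutation p 0.000298 and 0.000595, adjusted 0.00104 and 0.00399). Over the B1a arrays r was 0.99 and rho 0.95 (exact permutation p 0.000298 and 0.00114, adjusted 0.00104 and 0.00399). Without the 2 arrays farthest from the median r was 0.99 over Bs and 0.96 over B1a arrays, and with strain means removed it was 0.99 in each. The pair thus moved closely together from array to array.

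Hemgn and Car2 had r 0.89 and rho 0.76 over the Bs arrays (exact permutation p 0.00754 and 0.0368, adjusted 0.0176 and 0.0733), 0.88 with strain means removed and 0.58 without the 2 arrays farthest from the median of Hemgn. The relation rests in part on those 2 arrays, B6_Bs 1 and 2. Across the lineages Hemgn and S100a8 had r 0.62 and rho 0.74 (exact permutation p 0.0825 and 0.0419, adjusted 0.12 and 0.0733). With strain means removed r was -0.05, so within the strains no relation was seen, and r was 0.79 without the 2 arrays farthest from the median. For Car2 and S100a8 r was 0.54 and rho 0.56 (exact permutation p 0.173 and 0.155, adjusted 0.173 and 0.176), with r 0.34 without the 2 arrays and 0.19 with strain means removed. Within the neutrophil genes S100a8 and Ngp had r 0.68 and rho 0.54 (exact permutation p 0.0854 and 0.176, adjusted 0.12 and 0.176), with r 0.45 without the 2 arrays and 0.81 with strain means removed. Ngp and Camp had r 0.61 and rho 0.54 (exact permutation p 0.115 and 0.176, adjusted 0.134 and 0.176), which was -0.18 without the 2 arrays and 0.57 with strain means removed.

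Genes whose profile over the 8 Bs arrays was most like the mean of the erythroid members were Ces2g (r 0.971), Fech (0.966), Hbb-b2 (0.966), Gata1 (0.963), Sfxn1 (0.957), Cbx5 (0.955), Prdx2 (0.950) and Syncrip (0.948), among 12233 named genes. Fech places iron into heme, and Prdx2 is an abundant peroxiredoxin of red cells. The mean of the neutrophil members was most like Nt5m (0.979), Wipi1 (0.972), Exo1 (0.968), Atg7 (0.954), Cenpi (0.953), Ankfy1 (0.948), Pank1 (0.946) and Mpv17l2 (0.937), none of which is on the neutrophil lists. Over all 16 arrays, which differ first by cell type, the erythroid mean was most like Igkv6-15 (0.976), Mdc1 (0.973), Lcp1 (0.963) and Dek (0.963) among 14976 named genes. Among the genes kept, the highest value for the neutrophil mean was 0.860, for Dhx38. Genes with predicted or clone-type symbols were passed over in these rankings. These values describe arrays that share cell type and processing, and carry no test.

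The profile of S100a8 taken singly differed from that mean. Over all 16 arrays its scores followed Ifitm1 (r 0.983), Il1b (0.963), Slfn4 (0.957), Mmp9 (0.954), Clec4d (0.951) and the neutrophil chemokine receptor Cxcr2 (0.939). Over the 8 Bs arrays alone they followed Hmox1 (0.974), Pgm2 (0.972), Mrc1 (0.965) and Slc40a1 (0.944), of which Hmox1 degrades heme, Slc40a1 exports iron and Mrc1 is the macrophage mannose receptor. Hemgn over the Bs arrays followed Msh6 (0.974), Cpox (0.973), Gata1 (0.960), Slc4a1 (0.954), Scamp1 (0.953), Mpo (0.951), Rhag (0.944) and Gfi1b (0.940). Cpox is an enzyme of heme synthesis and Rhag a membrane protein of red cells. These single-gene profiles were chosen after their values were seen.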

How the data were processed

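RNA was amplified and biotin-labelled with the NuGEN Ovation system per the labels, and read on 16 mouse expression arrays. The deposited table holds 1 score per probe set and array, and its log base, centring and scaling are not given in the sources used here, so differences stay in score units; the tests had been planned for log2 values. No count or depth underlies the deposited score, and the number of arrays limits the precision. Of 45101 probe sets, 64 array controls were left out. The platform annotation gave 34958 probe sets 1 gene, 932 several and 9211 none, and 99.42% of those with 1 gene were matched by Entrez identifier to RefSeq. The floor of 0.495 is the 40th percentile of an array, taken as the median of the 16 arrays. Probe sets above the 40th percentile of their array on at least 4 of 16 arrays were used, and each gene was read from its probe set of highest mean, which left 22727 features (15129 named genes).

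The 4 group means were fitted in 1 model with limma 3.58.1 in R 4.3.3, after a test on simulated data, and contrasts were moderated and adjusted as the text says. Correlations used exact permutation tests in scipy 1.17.1, and plots used matplotlib 3.10.9. The members and the 18 gene lists (196 genes) were chosen with earlier results of these data known. The genes set to be named were the members, up to 6 genes per list past the test with the smallest adjusted p, otherwise the 3 with the smallest p, and the 8 most alike to each lineage's mean. Not every such gene is named for each comparison, and some outside this rule are named, such as Elane and Ctsg. Same-numbered arrays of Sle2c1_Bs and B6_Bs had deviations from their group means correlated at 0.39, 0.11, 0.62 and 0.43, so the numbers were taken to pair these groups. They did not pair the B1a groups (-0.01 to 0.17) or the cell types. Alternatives were other floors and filters, scalings, probe set rules, array weights, replicate blocks, fewer groups in the fit, leaving out each array, and leaving out arrays that stood apart.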

Additional observations from a re-analysis of the deposited data

Results flagged for a closer look

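Of 31 groups of 4 arrays tested for a lone extreme value, 8 held one whose gap to its nearest neighbour was large against the range of the group. Where 3 arrays lie at the floor, any single reading above it meets this test, and chance alone meets it in about 1 in 20 groups. On Sle2c1_B1a 3, Hemgn was at 1.16, Ngp at 1.12 and Ltf at 0.85 with the other 3 arrays of the group at the floor. Car2 was at 1.19 on the same array, against 0.54 and the floor on the others. That array is thus the highest of its group for Hemgn, Car2, Ngp and Ltf, and also for S100a9 by a small margin (3.70, against 3.63 to 3.68). Alas2 was at 0.78 on Sle2c1_B1a 2, Ngp at 0.57 on B6_B1a 4 and Ltf at 0.73 on B6_Bs 3, each with the other arrays of its group at the floor. S100a9 was at 3.29 on B6_Bs 3, above 3.05 to 3.09 on the other 3 arrays.

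The strain effect on Fcnb differed between the cell types by -0.55 (limma adjusted p = 0.0233). Fcnb averaged 0.574 ± 0.158 in Sle2c1_Bs and was at the floor in B6_Bs, and averaged 1.12 ± 0.0624 in Sle2c1_B1a and was at the floor in B6_B1a (SD, n = 4 each). The call was lost without any 1 of 5 of the 16 arrays (limma adjusted p up to 0.0653). It was also lost with the replicate number as a block within each cell type (0.0832), without Sle2c1_B1a 4, B6_Bs 1 and B6_Bs 3 (0.117) and without both replicate 3 splenic arrays (0.0941).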

How the results depend on the processing

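The deposited scale limits these results. Raised values have no order at the floor, and without a floor differences of genes near it are set by values under that cutoff. With only the groups compared in the fit, 3 members passed for Bs minus B1a in B6 mice in place of 5, and without Sle2c1_B1a 4, B6_Bs 1 and B6_Bs 3 there were 2. Leaving out 1 array gave 3 to 5 in B6 mice and 4 to 5 in Sle2c1 mice. The strain comparisons had 1 in place of 0 without a floor in B1a cells (Klf1, -6.10), 1 with array weights in Bs cells (Hemgn), and 1 each in the difference of the strain effects without a floor (Klf1, 6.04) and with array weights (Hemgn). The signs of some named genes turned. Without a floor, Ngp became -2.51 between strains in B1a cells and 2.29 in the difference of strain effects, Camp 1.00, Car2 2.84 and Ltf -1.76 in that difference, and Clec4e 1.02 for Bs minus B1a in Sle2c1 mice. Camp became -0.03 in B6 mice and -0.01 in Sle2c1 mice for Bs minus B1a with array weights, and 0.02 in the difference of strain effects. Without the 3 arrays that difference was 0.04 for Camp and 0.03 for Car2, and Klf1 became 0.04 between strains in Bs. Without B6_Bs 3 and Sle2c1_Bs 3, added after seeing the data, Camp became -0.16 for Bs minus B1a in Sle2c1 mice. Quantile normalization put the Car2 difference of strain effects at 0.01, and a floor of 1 put Klf1 at -0.02 for Bs minus B1a in B6 mice. With the probe set of largest variance Bcl11a became -0.07 and Bpgm -0.06 for Bs minus B1a in B6 mice. Median centring put S100a8 at -0.02 and S100a9 at -0.03 between strains in B1a cells. Leaving out 1 array, Camp ranged from -0.16 to 0.18 for Bs minus B1a in Sle2c1 mice, from -0.14 to 0.05 between strains in B1a cells and from -0.46 to 0.01 in the difference of strain effects. Car2 ranged from -0.25 to 0.10 in that difference, and in B1a cells Ngp ranged from -0.02 to 0.19, S100a8 from -0.02 to 0.20 and S100a9 from -0.03 to 0.20. The cause was not tested for those not at the floor. With replicate numbers as a block inside each cell type (replicate block), Ngp passed for Bs minus B1a in Sle2c1 mice (limma adjusted p = 0.0227), and on the 8 Bs arrays alone the strain difference of Hemgn had a limma adjusted p of 0.656. The block changed no other member's call. Among the named list genes it ended the calls of Sox6 (limma adjusted p = 0.0603) and Sptb (0.0872) for Bs minus B1a in Sle2c1 mice. It also ended that of the Fcnb difference of strain effects (0.0832). Ngp also passed there with a filter on 8 arrays (0.0486) and with median centring (0.0485), and without a floor Klf1 passed in Sle2c1 mice and Ltf in both strains. With only the groups compared in the fit, Bs minus B1a calls were also lost for Alad (0.0604) and Sox6 (0.113) in Sle2c1 mice and for Slc4a1 (0.0878), Ermap (0.0509) and Lcn2 (0.117) in B6 mice. Without a floor Ngp (0.278) and Car2 (0.286) did not pass in B6 mice. Without the 3 arrays, 2 and not 4 monocyte and macrophage markers were lower in spleen in B6 mice.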

Other observations

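Platelet and eosinophil markers were also read in these preparations. Ppbp, a platelet chemokine, was at 2.04, 2.20, 2.20 and 2.37 in Sle2c1_Bs and 2.18, 2.42, 2.19 and 2.45 in B6_Bs, and at or near the floor on the B1a arrays. It was higher in spleen by 1.68 in Sle2c1 mice and 1.78 in B6 mice (limma adjusted p = 2.45e-09 and 1.58e-09). Pf4, another platelet chemokine that macrophages can also make, ran the other way in B6 mice. It was at the floor on all Sle2c1_Bs arrays and on 3 B6_Bs arrays, and at 1.87, 1.02, 2.00 and 2.66 in B6_B1a, a Bs minus B1a difference of -1.32 (limma adjusted p = 0.00103). In B1a cells Pf4 differed between Sle2c1 and B6 mice by -1.34 (limma adjusted p = 0.00444), a call lost with only the groups compared in the fit (0.108). Of 5 eosinophil and basophil markers, 1 was higher and 2 lower in spleen in B6 mice, and none was higher and 1 lower in Sle2c1 mice. The mast cell and basophil protease Cpa3 was lower in spleen in both strains. In B6 mice Epx was lower by at least 0.83, whereas Ccr3 was higher by at least 1.01. The T cell genes Cd3g and Cd3d were lower in spleen in B6 mice, with differences of -1.09 and -0.76 (limma adjusted p = 0.000547 and 0.00694).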
